A study of Mus musculus with 6 samples.

Results

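Platelet and megakaryocyte genes were followed in the spleen of weanling mice exposed to lead during development. The list held 9 genes: the granule chemokines Pf4 and Ppbp, the integrin chains Itga2b and Itgb3, the glycoprotein receptor genes Gp1ba, Gp1bb, Gp9 and Gp6, and Treml1. A gene was measured where a probe carried its symbol and no other in the platform annotation. Only the 34949 probes kept of the 35587 in the table were searched, as the last array rows were left out. This gave 9 probes for 8 of the 9 genes, with 2 probes for Itgb3, out of 17848 genes measured. No such probe was found for Gp1ba among the probes kept, and its level was not analysed here. The RNA came from spleens of BALB/c females aged 21 days after birth and was read on 1-colour CodeLink arrays, 1 animal per array. There were 3 controls and 3 animals given 0.1 mM lead (Pb) from gestation day 8. The labels do not say how lead was given, what the controls received, or whether animals shared a litter. Pb replicate 3 carries values out of step with its probes (r of 0.0453 to 0.0484 with the controls across probes, against 0.940 or more between controls), so the results rest on 3 control arrays and Pb replicates 1 and 2. Pb replicate 2 was kept but followed the controls less closely as deposited (r of 0.656 to 0.666). Pb replicate 1 had r of 0.923 to 0.932. Pb replicate 2 also had 711 intensities at or under 0, against 151 in Pb replicate 1 and 231 to 267 in the controls. The p-values of the main comparison measure the spread between the 5 samples used. Those from fits with other sets of arrays are given with their setting.

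Megakaryocytes are the large polyploid cells that shed platelets. In the mouse they sit in the red pulp of the spleen as well as in the bone marrow, and the spleen also holds a reserve of circulating platelets. A platelet catches on a damaged vessel through the von Willebrand factor receptor (the products of Gp1ba, Gp1bb, Gp9 and Gp5) and the collagen receptor (Gp6), and is then activated. It releases its granules, which hold the chemokines of Pf4 and Ppbp, and binds fibrinogen through the integrin of Itga2b and Itgb3. Platelets inherit their RNA from the megakaryocyte, so in whole spleen the 2 sources are read together, and fewer cells of a type and less RNA per cell cannot be told apart.

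Many of these genes are textbook targets of GATA1 and of ETS factors such as FLI1, whose own transcripts are given further on. The RefSeq table of GRCm38.p6 held a promoter for 8 of the 9 genes and none for Itgb3. It was searched for the GATA words AGATAA and also AGATAG, further TGATAA and also TGATAG, and for the ETS words AGGAAG or else CGGAAG, on both strands, in the 250 bases before the start of the gene. A GATA word lay in 3 of the 8 promoters (Gp1ba, Gp1bb and Gp6), against 26.5% of all 32851 promoters in the table. An ETS word lay in 5 of the 8 (Pf4, Itga2b, Gp1ba, Gp1bb and Gp9), against 39.2%. No match overlapped another. The 120 bases before the start are shown for the 5 genes with a word in that stretch, 5′ to 3′ on the strand of the gene, with GATA and ETS words in capitals. A match is a description of letters, and no binding was measured.
Gp1ba (chr11:70639002-70639121, plus strand): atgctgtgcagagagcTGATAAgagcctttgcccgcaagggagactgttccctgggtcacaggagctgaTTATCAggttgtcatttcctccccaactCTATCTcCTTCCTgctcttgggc
Gp1bb (chr16:18622404-18622523, minus strand): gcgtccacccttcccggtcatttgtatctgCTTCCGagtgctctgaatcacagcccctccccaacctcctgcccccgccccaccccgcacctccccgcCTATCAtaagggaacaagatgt
Gp9 (chr6:87777950-87778069, plus strand): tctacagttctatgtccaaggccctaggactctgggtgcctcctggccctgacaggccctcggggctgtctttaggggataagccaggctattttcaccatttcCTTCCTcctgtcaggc
Itga2b (chr11:102469884-102470003, minus strand): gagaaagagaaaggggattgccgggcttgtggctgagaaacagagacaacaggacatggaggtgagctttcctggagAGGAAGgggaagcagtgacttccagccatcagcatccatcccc
Pf4 (chr5:90772315-90772434, plus strand): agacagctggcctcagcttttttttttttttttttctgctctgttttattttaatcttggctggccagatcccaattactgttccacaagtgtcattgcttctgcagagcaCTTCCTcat
Ppbp and Treml1 had neither word in 250 bases, and Gp6 had 1 GATA word (AGATAA) from 144 to 139 bases before its start.

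No platelet gene differed past the threshold between lead-exposed and control spleens. Of the 8 genes measured 7 were tested, all 7 of them above the filter on dim probes in the controls alone, and 0 had a limma adjusted p under 0.05, where 0.0795% of all genes tested did. That share is 11 of 13828 genes, and 10 of the 11 were pancreatic exocrine markers, described further on. At an unadjusted p under 0.05 the count of platelet genes was also 0, against 5.71% of genes tested. The groups did not overlap in 1 of the 8 genes, Itga2b, against 24.1% of all genes measured. The log2 differences of the 8 genes (Pb minus control) had a median of 0.17, beside 0.03 over all genes measured. Among tested genes they ran from -0.14 for Ppbp to 0.34 for Itga2b and Treml1. The 95% confidence intervals reached from 0.606-fold for Ppbp to 2.52-fold for Treml1, and the data leave any change within a gene's own interval possible. These intervals take the position correction as exact and are too narrow to hold its uncertainty. Without the correction the differences of Pf4, Itga2b, Itgb3, Gp9 and Treml1 lay outside their own intervals, and those of Ppbp and Gp1bb inside. All levels below are log2 intensities after correction for position on the array, on a scale where the array median is about 0.

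**Figure D1:**
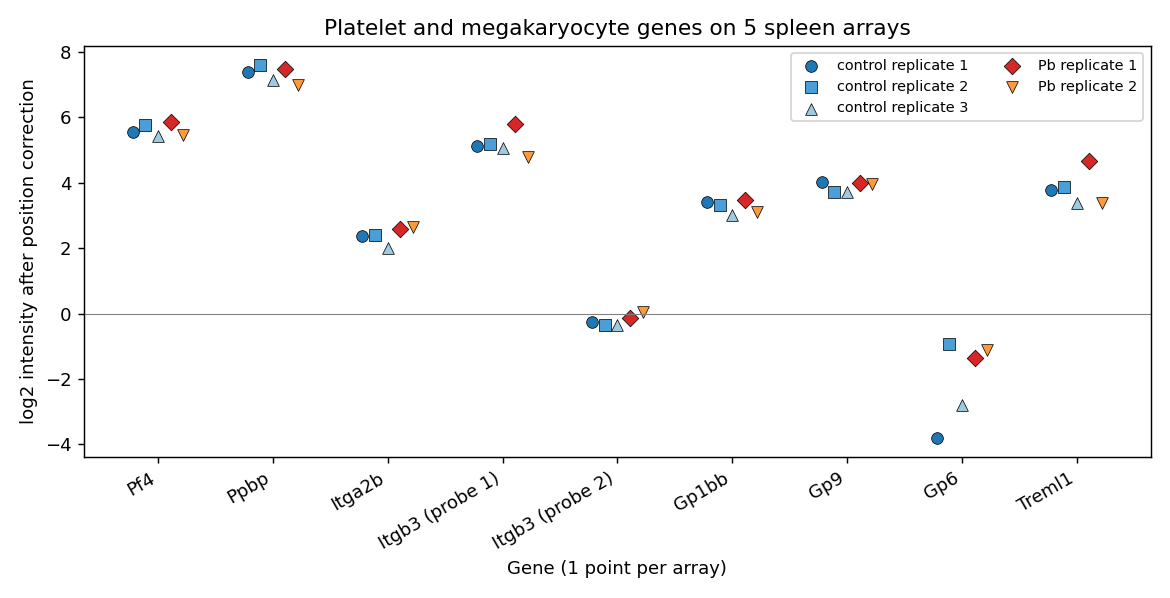
Log2 intensity after position correction (vertical axis) of the 9 probes of platelet and megakaryocyte genes, 1 point per array. Blue symbols are the 3 controls, and red and orange symbols are Pb replicates 1 and 2. The groups overlap in 7 of the 8 genes by their brightest probe, Gp6 is spread over the dim end, and both Pb points lie above all controls for Itga2b and for the second probe of Itgb3.

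The granule chemokines were bright on every array. Pf4, platelet factor 4, was at 5.57, 5.76 and 5.42 in control replicates 1, 2 and 3 and at 5.87 and 5.46 in Pb replicates 1 and 2. Pb replicate 1 was the highest of the 5 and Pb replicate 2 lay within the controls, so the groups overlapped (log2 difference 0.09, SE 0.21, 95% confidence interval -0.43 to 0.60, limma adjusted p = 0.897). Ppbp, pro-platelet basic protein, is the gene next to Pf4 in the chemokine cluster. It was at 7.40, 7.62 and 7.16 on the control arrays, against 7.49 and 7.005 on the Pb arrays. Here Pb replicate 2 was the lowest array and Pb replicate 1 lay inside the control range (log2 difference -0.14, SE 0.24, interval -0.72 to 0.43, limma adjusted p = 0.843). For both chemokine genes control replicate 2 was the highest control and control replicate 3 the lowest.

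Itga2b, the alpha chain of the fibrinogen receptor and a marker of the megakaryocyte lineage, was the gene that separated the groups. It was at 2.38, 2.42 and 2.02 on the control arrays, against 2.58 and 2.65 on the Pb arrays. The gap between the highest control and the lower Pb array was smaller than the range among the controls (0.40), and the difference did not pass (0.34, SE 0.20, interval -0.14 to 0.82, limma adjusted p = 0.624). As deposited, the same probe read 6.01, 6.15 and 4.20 in the controls and 4.31 and 3.04 in the Pb arrays, so it was lower in lead before the position correction (log2 difference -0.57) and higher after it.

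Itgb3, the beta chain of that receptor, which other cells use with another alpha chain, had 2 probes. The brighter one was at 5.12, 5.18 and 5.05 on the control arrays, against 5.80 and 4.80 on the Pb arrays. The Pb arrays lay on opposite sides of tightly grouped controls (SD 0.07, n = 3), 0.68 above and 0.32 below their mean, and the log2 difference was 0.18 (SE 0.31, limma adjusted p = 0.849). The dimmer probe was at -0.25, -0.37 and -0.35 on the control arrays, against -0.15 and 0.04 on the Pb arrays. Both Pb arrays were above all controls on it, without passing (0.26, SE 0.17, interval -0.14 to 0.67, limma adjusted p = 0.635). The probes thus disagreed on Pb replicate 2, which was the lowest array on the first and the highest on the second.

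The von Willebrand factor receptor was seen through 2 of its chains in the list. Gp1bb, the beta chain of glycoprotein Ib, was at 3.41, 3.33 and 3.01 on the control arrays, against 3.48 and 3.11 on the Pb arrays. The groups overlapped and the difference was the smallest of the genes tested (0.04, SE 0.22, interval -0.48 to 0.57, limma adjusted p = 0.953). Gp1bb overlaps Septin5 in the gene table, and the sources used here do not say which transcript the probe reads. Gp9, glycoprotein IX, was at 4.02, 3.73 and 3.71 on the control arrays, against 3.99 and 3.97 on the Pb arrays. Both Pb values lay inside the control range (0.16, SE 0.18, interval -0.28 to 0.61, limma adjusted p = 0.762).

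The collagen receptor and the granule membrane receptor were the least precise members. Gp6, glycoprotein VI, was at -3.81, -0.94 and -2.82 on the control arrays, against -1.37 and -1.12 on the Pb arrays. It lay under the filter on dim probes and was not tested: the controls alone spanned 2.87, and control replicate 2 was above both Pb arrays. Treml1, a receptor stored in platelet granules that reaches the surface on activation, was at 3.79, 3.88 and 3.38 on the control arrays, against 4.68 and 3.37 on the Pb arrays. Pb replicate 1 was the highest and Pb replicate 2 the lowest of the 5, and the log2 difference was 0.34 (SE 0.40, interval -0.65 to 1.33, limma adjusted p = 0.781). The 8 probes next to that of Treml1 had a median log2 difference of 0.41 after correction, and deviated from the control mean by 0.60 in Pb replicate 1. With the median of the neighbouring probes subtracted on each array, Treml1 differed by -0.12.

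In 5 of the 8 genes the gap between the Pb arrays was larger than the difference between the groups. Pb replicate 1 was above all 3 controls in 5 of the 8 genes (Pf4, Itga2b, Itgb3, Gp1bb and Treml1), against 26.4% of all genes, and below all controls in 0, against 29.7%. Pb replicate 2 was below all controls in 3 of the 8 (Ppbp, Itgb3 and Treml1), against 28.4% of genes, and above all in 1 (Itga2b), against 38.7%. The median of the members relative to the control mean was 0.30 in Pb replicate 1 and -0.13 in Pb replicate 2. The members also shared an order among the controls: control replicate 3 was the lowest control in 7 of the 8 genes, against 29.5% of genes, and the member medians of control replicates 1, 2 and 3 were 0.06, 0.16 and -0.24. Summed over the 8 genes on the linear scale, the intensities were 297, 331 and 254 in the controls and 353 and 242 in the Pb arrays, so the Pb arrays were the highest and the lowest of the 5. When Pb replicate 2 was left out the median difference was 0.30, and when Pb replicate 1 was left out it was -0.13. In the first of these fits Treml1 differed by 1.00 and Itgb3 by 0.68, each with a limma adjusted p of 0.619; such a fit takes the spread of the single Pb array from the controls.

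In Pb replicate 2 the position correction changed 7 of the 9 member probes by more than the largest difference between the groups among genes tested. From the brighter Itgb3 probe, -3.18 was removed in Pb replicate 2, where the deposited intensity was 3.07 against 31.2, 32.6 and 33.0 in the controls. From Gp9, -2.81 was removed (deposited 2.23 against 14.2, 13.1 and 13.6), and from Treml1 -2.18. From Pf4, Itga2b and Ppbp -1.58, -1.05 and -0.64 were removed, and from the dimmer Itgb3 probe 1.18, in the other direction. In Pb replicate 1 the amounts ran from -0.51 for Treml1 to 0.38 for Itgb3. Without the correction the median difference of the members was -0.59, and 0 of the 8 genes passed or separated the groups. The log2 difference was above 0 in 7 of the 8 genes after correction and in 2 before it, so the sign of the median turned with the correction. It also turned with a surface over the array row only (median -0.21). With the correction kept and the neighbouring probes subtracted the median was -0.02, 3 of the 8 genes were above 0, and Itga2b differed by 0.15. The count of calls stayed at 0 in each.

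**Figure D2:**
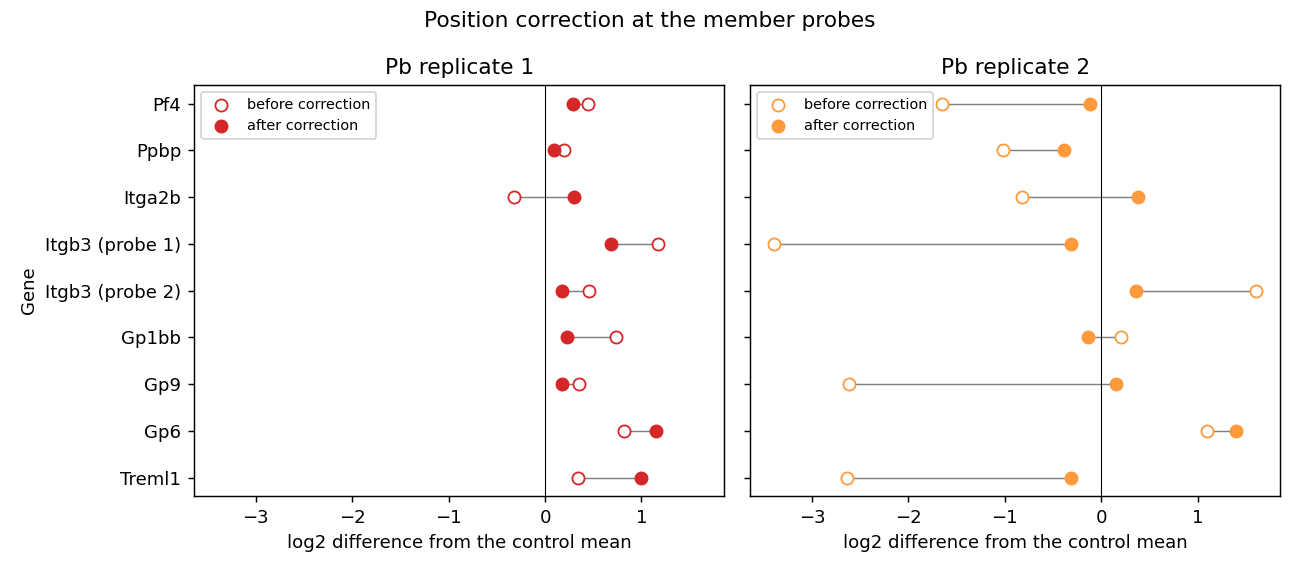
Log2 difference from the control mean (horizontal axis) of each member probe in Pb replicate 1 (left) and Pb replicate 2 (right), before (open) and after (filled) the position correction. In Pb replicate 2 the first Itgb3 probe moved from -3.39 to -0.32 and Gp9 from -2.61 to 0.15, whereas in Pb replicate 1 every probe moved by less than 1.

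The rest of the platelet and megakaryocyte programme was read from 7 lists with 84 genes in all, of which 74 had a probe and 71 were tested. None passed the adjusted threshold in limma: 0 rose and 0 fell. At an unadjusted p under 0.05, 3 were higher in lead (Clu, Rap1b and Rab27b) and 0 lower, 4.23% of those tested against 5.71% of all genes. The groups did not overlap in 18 of the 74 measured, 24.3% against 24.1%. The median log2 difference of the tested genes was 0.03.

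Among other adhesion receptors 13 of 14 measured genes were tested, with a median difference of -0.02. Gp5, the remaining chain of the von Willebrand factor receptor, was at 1.33, 1.60 and 1.19 on the control arrays, against 1.53 and 1.18 on the Pb arrays, so its groups overlapped (log2 difference -0.02, SE 0.21). Vwf, the ligand of that receptor, made by endothelium as well as megakaryocytes, was at 4.51, 4.29 and 4.04 on the control arrays, against 4.58 and 3.79 on the Pb arrays, with Pb replicate 1 highest and Pb replicate 2 lowest (-0.09, SE 0.29). Clec1b, the receptor for podoplanin, had 0.32 (SE 0.23). Fcer1g, the signalling chain that Gp6 needs and that Fc receptors of myeloid cells share, was at 5.46, 5.23 and 5.33 on the control arrays, against 5.10 and 4.81 on the Pb arrays. Both Pb arrays were below all controls, but it did not pass (-0.39, SE 0.18, limma adjusted p = 0.622). Esam, an adhesion molecule of platelets and endothelium, had the largest difference of the list, -0.78 (SE 0.44), which came from Pb replicate 2 at 3.02, while Pb replicate 1 at 4.58 lay among controls at 4.66, 4.59 and 4.47. The limma adjusted p ran from 0.622 to 0.980 over the adhesion receptors named.

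Of the receptors for soluble agonists 9 were tested, with a median difference of -0.06. P2ry12, the ADP receptor, was at 0.98, 1.06 and 0.69 on the control arrays, against 0.98 and 0.72 on the Pb arrays, both within the control range (-0.06, SE 0.20). Ptger3, a prostaglandin E receptor, was higher in both Pb arrays than in all controls (0.54, SE 0.26), at levels below 0, and did not pass (limma adjusted p = 0.622).

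The granule list held cargo genes together with Nbeal2 and Vps33b, which serve granule formation and are not cargo. It had 14 measured genes, 13 of them tested, with a median difference of 0.00 (lowest -0.74, highest 0.47 for Nbeal2). Selp, the gene of P-selectin, which endothelial cells also store, was at 0.60, 0.27 and 0.60 on the control arrays, against 0.68 and 0.96 on the Pb arrays, above all controls (0.33, SE 0.20, limma adjusted p = 0.629). F5, coagulation factor V, was at 3.63, 3.39 and 3.00 on the control arrays, against 3.68 and 2.71 on the Pb arrays, again with Pb replicate 1 highest and Pb replicate 2 lowest (-0.14, SE 0.34). Clu, clusterin, had the smallest p of the list: it was at 4.77, 4.70 and 4.66 on the control arrays, against 5.25 and 5.05 on the Pb arrays (0.44, SE 0.17, limma adjusted p = 0.622). Pdgfb, a platelet-derived growth factor chain, had -0.74 (SE 0.33), with Pb replicate 1 at 1.86 and Pb replicate 2 at 0.79 below controls at 2.04, 2.16 and 1.98. Most of its difference lay in Pb replicate 2.

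In the list of integrin activation and signalling, 14 genes were tested with a median of 0.06. Rap1b, the small GTPase that acts upstream of integrin activation, had 2 probes and both were higher in both Pb arrays. The brighter was at 2.50, 2.04 and 2.01 on the control arrays, against 2.80 and 2.70 on the Pb arrays (0.57, SE 0.22, limma adjusted p = 0.622), and the other differed by 0.42 (SE 0.19). Of the eicosanoid enzymes 3 were tested, with a median of -0.11. Tbxas1, thromboxane synthase, differed by -0.17 (SE 0.18), with Pb replicate 1 among the controls, and its second probe was under the filter.

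The next list held transcription factors of the lineage and genes of thrombopoietin signalling, such as Kit and Jak2. Gata1, Nfe2, Zfpm1, Gfi1b, Lyl1, Jak2 and Kit lay below all controls in Pb replicate 1 and above all in Pb replicate 2. Gata2 and the brighter Mecom probe had the reverse order, and Tal1 was above all controls in both. Of all genes measured, 29.7% were below all controls in Pb replicate 1 and 38.7% above all in Pb replicate 2. The share with both was not counted. In 13 genes tested the median difference was 0.12, and the list's median relative to the control mean was -0.19 in Pb replicate 1 and 0.39 in Pb replicate 2. Gata1, shared by megakaryocytes and red cell precursors, was at 4.08, 4.05 and 4.24 on the control arrays, against 3.91 and 4.71 on the Pb arrays (0.18, SE 0.27). Nfe2, needed for platelet release, was at 4.15, 4.03 and 4.44 on the control arrays, against 4.002 and 4.66 on the Pb arrays (0.12, SE 0.26). For both genes Pb replicate 1 was the lowest array and Pb replicate 2 the highest, opposite to the brighter Itgb3 probe and Treml1. Zfpm1, the cofactor of GATA1, had the largest difference of the list, 0.55 (SE 0.52), from 3.61 in Pb replicate 2, and Meis1 the smallest p (-0.35, SE 0.22). Fli1, the ETS factor of the lineage, was at 2.86, 2.55 and 2.68 on the control arrays, against 2.69 and 2.19 on the Pb arrays (-0.26, SE 0.22). In limma the adjusted p of Gata1, Nfe2, Zfpm1, Meis1 and Fli1 ran from 0.633 (Meis1) to 0.881 (Nfe2).

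In the list of cytoskeleton and platelet release 6 genes were tested, with a median of 0.20. Tubb1, the tubulin of the platelet marginal band, was at 4.82, 4.92 and 5.07 on the control arrays, against 4.70 and 5.44 on the Pb arrays, with the Pb arrays at both ends (0.13, SE 0.26, limma adjusted p = 0.875). Rab27b, a GTPase of granule transport, had 2 probes that both lay higher in both Pb arrays. The brighter was at 1.96, 1.44 and 1.33 on the control arrays, against 2.02 and 2.58 on the Pb arrays (0.72, SE 0.28, limma adjusted p = 0.622), and the other differed by 0.63 (SE 0.26). Pb replicate 1 exceeded the highest control by less than the control SD (0.34, n = 3) on the brighter probe.

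**Figure D3:**
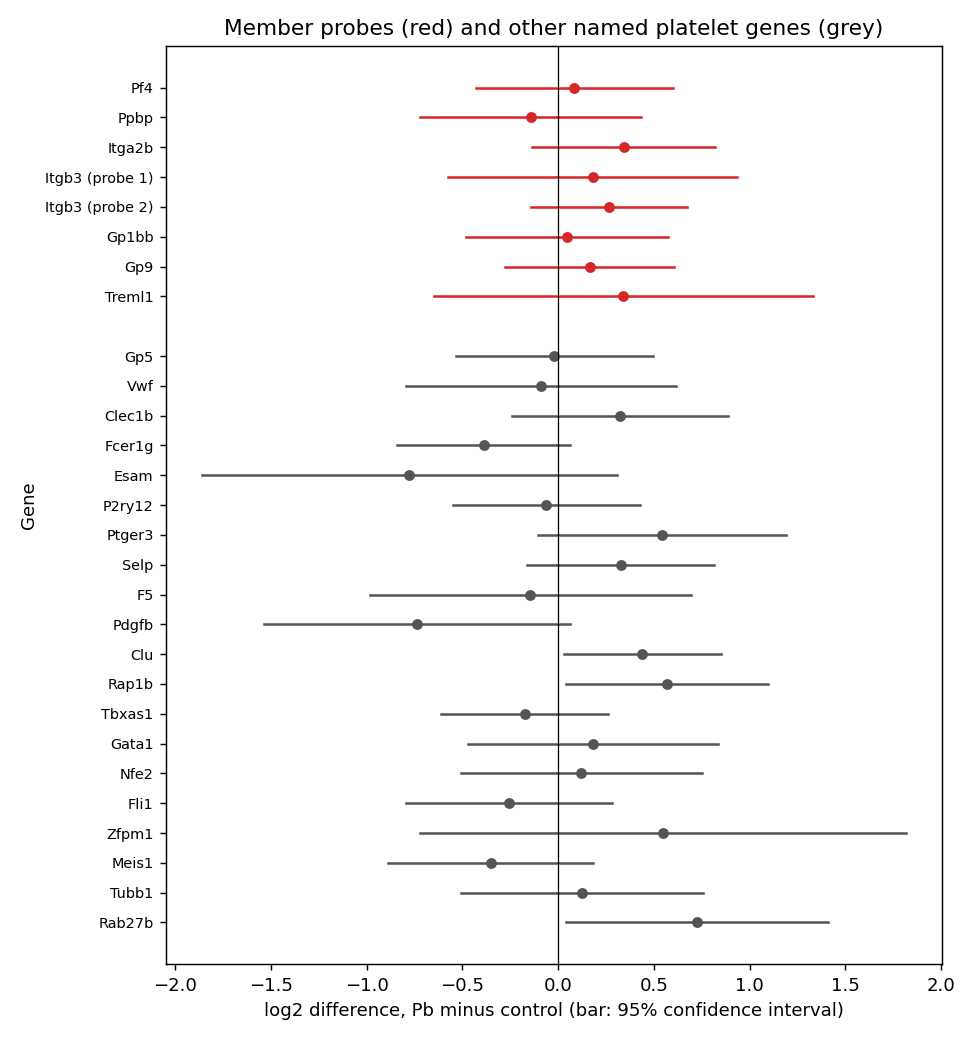
Log2 difference, Pb minus control (horizontal axis), with its 95% confidence interval from limma, for the 8 member probes tested (red) and the other named platelet and megakaryocyte genes (grey, the brightest probe of each). All red intervals include 0. Those of Clu, Rap1b and Rab27b do not, but none of them passed after adjustment.

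Markers of other cells were read beside these genes. In the controls 6 of 7 measured B cell markers and 7 of 7 T cell markers lay above the array median. The B cell list had medians of 0.17 in Pb replicate 1 and 0.01 in Pb replicate 2 relative to the control mean, with summed intensities of 169 to 186 in the controls and 172 to 190.1 in the Pb arrays. The T cell list had 0.16 and -0.16, with sums of 112 to 139 and 106 to 134. In the T cell list and the platelet members (0.30 and -0.13), Pb replicate 1 was above the control mean and Pb replicate 2 below it. The other adhesion receptors (0.16 and -0.17), agonist receptors (0.07 and -0.15) and signalling genes (0.14 and -0.13) had this order too. The B cell list and the remaining platelet and megakaryocyte lists did not. The 11 erythroid markers had medians of -0.19 in Pb replicate 1 and 0.45 in Pb replicate 2 relative to the control mean, the same order as the transcription factor list. Their summed intensity was 524 to 731 in the controls and 563 to 793 in the Pb arrays. The 9 neutrophil and myeloid granule markers had 0.78 in Pb replicate 1 and 0.03 in Pb replicate 2, with sums of 333 to 453 in the controls and 349 to 652 in the Pb arrays. The 7 endothelial markers had -0.04 and -0.47, with sums of 56.3 to 60.2 and 41.99 to 57.4. The 6 macrophage markers had -0.05 and 0.19, with sums of 67.8 to 75.03 and 58.5 to 66.1. In these 6 lists 0 genes passed, and their part in the platelet values was not tested. The 16 pancreatic exocrine markers measured had medians of 2.96 and 3.98 in the Pb arrays, and their summed intensity was 18.2 to 20.2 in the controls and 182 to 264 in the Pb arrays. Both Pb arrays lay above all controls in 14 of the 16. Try5, Amy2a5, Cpa1 and Cpb1, the called genes of this list that are named here, had control means of -2.54, -3.86, -2.46 and -2.09, under the filter on dim probes (-1.56). They entered the test through the Pb arrays alone. Their limma adjusted p was 0.009 to 0.011, 0.112 to 0.116 without the filter and 0.052 to 0.112 without control replicate 1. Their part in the platelet values was not tested. No marker in these lists had an intensity at or under 0 on the 5 arrays.

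**Figure D4:**
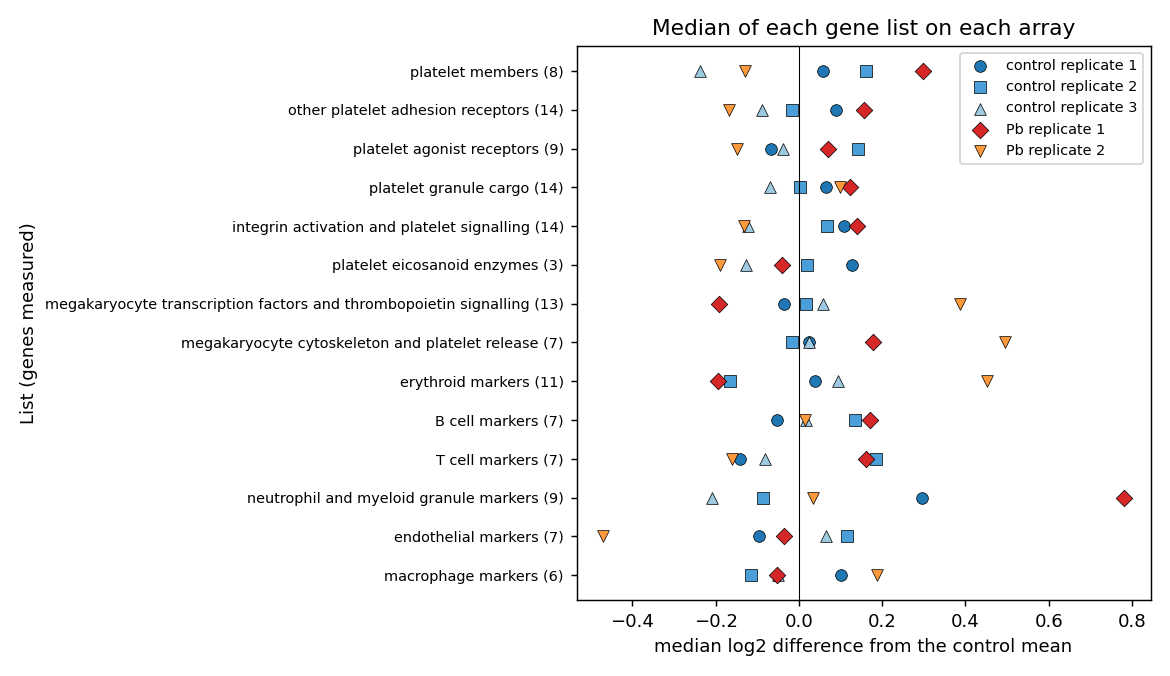
Median log2 difference from the control mean (horizontal axis) of each gene list on each of the 5 arrays, with the number of genes measured in parentheses. The platelet members are highest in Pb replicate 1 (0.30) and lowest in control replicate 3 (-0.24). The transcription factor, cytoskeleton, erythroid and macrophage lists are highest in Pb replicate 2. The pancreatic exocrine list is not drawn because its Pb values lie far outside this range.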

How the data were processed

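The deposited values are 1-colour (Cy5) CodeLink probe intensities on a linear scale. The authors' normalisation is not given in the sources used here; array medians of 0.972 to 0.987 show that values were scaled to a common median. Members and lists were chosen with earlier results of these data known. Probes in the last 8 array rows (638 probes) and Pb replicate 3 were left out by the rule that defined this part. How the controls agreed in those rows was not measured here. Intensities at or under 0 were raised to each array's 1st percentile of positive intensities before log2. A smooth surface was fitted to how far each array lay from a reference, the average of the 4 arrays other than Pb replicate 2, and subtracted, 2 times over (mgcv 1.9.3, bam; array row with level and array row with column; 40, 6 and 8 basis functions). That reference holds the controls, so some closeness to them is built in. Pb replicate 2 stayed wider afterwards (median absolute deviation 0.607 from the controls, against 0.394 in Pb replicate 1). Probes with a mean at or above the 30th percentile (24464) were tested with limma 3.58.1 in R 4.3.3 (lmFit, eBayes, two-sided, Benjamini-Hochberg over all probes tested). A gene was given by its probe with the highest mean. Symbols came from the platform annotation (21487 of 21615 single-symbol probes matched RefSeq). The scripts were tested on simulated data. Genes followed by name were the 9 members, 12 fixed genes of the wider lists, and up to 4 called markers of other cells. The genes with the smallest p and the largest difference in each wider list were added. Further list genes are named to show what a list held, how its genes split, or which a refit called.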

Additional observations from a re-analysis of the deposited data

Results flagged for a closer look

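The dimmer Itgb3 probe read 3.15 in Pb replicate 3 as deposited, an array not used in the comparison, against a highest control of 0.817. It was singled out because it was the only one of the 9 member probes above all controls on that array. Pb replicate 3 correlated with the controls at r of 0.0453 to 0.0484 across probes, so nothing about Itgb3 is read from it.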

How the results depend on the processing

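In all 21 alternatives, 2 of them (a reference of controls alone, in which 1 surface did not converge, and subtraction of neighbouring probes) chosen after seeing the data, 0 platelet members passed the adjusted threshold, and of 168 comparisons of single members 0 gained a call while 26 changed sign. Of 504 comparisons of the other named genes 23 lost a call, all of them pancreatic markers, 3 gained one and 31 changed sign without a call; Amy2a5 was called in 11 of the 21 alternatives and not tested in 3. The median difference of the members (0.17) moved to -2.13 in all 6 arrays as deposited, -0.59 in 5 uncorrected arrays, -0.21 where the surface followed the array row only, -0.02 with neighbouring probes subtracted, and between -0.13 and 0.30 on leaving out single arrays. Over all genes the median (0.03) was -0.20, -0.01 and -0.12 in the first 3 of these. Members with groups that do not overlap (1) became 0 in 6 arrays, 0 without correction, 0 with neighbouring probes subtracted, and 1 to 2 with 1 control left out. The share of all genes was not counted with a control left out. With a single Pb array they were 5 of 8 for Pb replicate 1 and 4 of 8 for Pb replicate 2. Of all genes, Pb replicate 1 lay above all controls in 26.4% and below all in 29.7%. For Pb replicate 2 these shares were 38.7% and 28.4%. Calls in the wider lists stayed at 0 on leaving out any of the control arrays. Without Pb replicate 1, the wider-list genes picked out were Itga5 (0.96), Esam (-1.56), Mpig6b (-0.97), Pdgfb (-1.27) and Zfpm1 (1.46). That fit rests on Pb replicate 2 alone, the array that stayed widest after correction, and takes its spread from the controls. Calls over the whole table rose in it as well, so these genes are not read as a result about the lists. The 15 probes called over the table became 0 in 6 arrays, 0 without correction, 0 without the filter, 7 under array weights and between 2 and 2817 on leaving out single arrays. The count at an unadjusted p (1757) went to 3607 without correction, 7055 with rows alone, 915 under array weights and between 768 and 7350 on leaving out single arrays. Replicate numbers are shared between groups, but the r between the deviations of arrays with equal numbers was 0.06 and 0.01, and nothing in the labels says what the number means. With the replicate block 7 probes passed in place of 15, 975 in place of 1757 at an unadjusted p, and 0 members. The cause of these changes was not tested. Low signal limits Gp6.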
